A study of Caenorhabditis elegans with 29 samples.

Results

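The comparison described here set gonads of glh-1(gk100) worms against wild-type gonads, both taken on Day 1 of adulthood, which is 1 day past the last larval stage. Its members are 5 of the 29 libraries of the study, 2 from the mutant and 3 from wild type, placed by the genotype in their labels. The study measured RNA in dissected Caenorhabditis elegans gonads after the loss of P granules, either by RNAi against several P-granule genes at once or by mutation of 1 gene. Wild type was strain SS1174 and the mutant was strain SS0804 with the glh-1(gk100) I allele, and all libraries used here came from worms at 24 °C. Another genotype, strain SS0002 with pgl-1(ct131) him-3(e1147) IV (3 libraries), carries a mutation in the meiotic gene him-3 beside that in pgl-1. Day 1 gonads after P-granule RNAi and their controls (3 libraries each) were taken from worms that carry the unc-119::gfp reporter. Each library pooled many gonads. How many glh-1 gonads were pooled, whether the worms were fertile and whether the gonads were cut at the bend are not given for the mutants in the sources used here. Whether replicates came from separate cultures is not stated, so p-values measure the spread between these libraries and may be technical.

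P granules are droplets of RNA and protein that sit on the outer face of germ cell nuclei, where many newly exported transcripts pass. GLH-1 is a DEAD-box RNA helicase related to Vasa, and it works with its relatives GLH-2, GLH-3 and GLH-4 and with the PGL proteins that form the granule body. In the worm germ line the X chromosome is held largely silent through most of germ cell development, so most genes with germline roles lie on the autosomes.

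The authors' deposited table holds group averages, from which the whole reads of each library could be worked out. The letters a, b and c order the libraries of a group by depth, deepest first, because their replicate numbers are not known. Wild-type libraries held 4303736, 3269234 and 1158248 reads on genes, and the glh-1 libraries 3980657 and 1416931. At an even depth of 1158248 reads, 9716 to 10057 genes were expected in wild-type libraries, and 13213 and 11740 in glh-1 libraries a and b, so that both mutant libraries showed more genes. Levels below are normalized reads, which follow the authors' scaling and are not divided by gene length. A gene is called higher or lower where its adjusted p in the authors' deposited table is under 0.05. The deposited fold changes are shrunken for low genes: R02F2.2, for example, has averages of 0.955 and 72.3, a ratio of 75.7, and a log2 fold change of 4.46 in the authors' deposited table.

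The labels were checked against marker genes. Germline and oocyte markers were abundant in every library, but their sums were lower in glh-1. The 7 germline markers summed to 18779 to 19585 in wild type and to 12196 and 13312 in glh-1. The 5 oocyte markers summed to 18870 to 22980 against 15623 and 16976. Among these markers gld-1 and cgh-1 were called lower, and no oocyte marker was called. These 2 genes hold most of the germline sum, with cgh-1 at 10083, 8239 and 11825 in wild type against 4848 and 5679. The rest of the germline markers were not called. Their deposited log2 fold changes ran from -0.63 for pgl-3 to 0.54 for glh-1, with syp-1 at -0.01. The yolk receptor gene rme-2 stood at 5695, 7016 and 5277 in wild type and at 4500 and 4012 in glh-1 gonads, and the meiotic axis gene him-3 at 357, 444 and 316 against 354 and 268. The 10 intestine markers summed to between 16185 and 21266 normalized reads in wild type, to 23563 in glh-1 library a and to 97942 in library b, nearly all of it from yolk protein genes. Their defining regulator elt-2 had no read in wild type and stood at 2.41 and 10.9 in glh-1. Sperm markers, 39 in the table, summed to 4.48 to 7.79 in wild type and to 335 and 193 in glh-1. The 3 muscle markers summed to 209 to 449 against 465 and 1385. Of the 4 neuron markers, rab-3 had no read in wild type and stood at 2.41 and 1.82 in glh-1, and unc-17 had none in glh-1. The part of other tissues in the results below was not tested, and in bulk samples fewer cells of a type cannot be told from less RNA per cell.

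The reads on the targeted gene itself did not fall. Normalized reads of glh-1 were 1104, 2218 and 954 in wild-type libraries and 1942 and 2311 in the mutant. The mutant values lie at the upper end of the wild-type range and overlap it. In the authors' deposited table the log2 fold change of glh-1 was 0.54 (adjusted p = 0.32). Reads from outside the altered part of a gene do not check the label, and the position of the lesion was not used here.

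Of 45627 genes in the table, 9718 have an adjusted p for this comparison, and 649 of these were higher (6.68%) and 240 lower (2.47%) in the authors' deposited table. The libraries of the groups did not overlap for 643 of the rises and for all 240 falls, against 44.7% of all genes tested. A log2 fold change of at least 1 in size was reached by 626 rises and by 110 falls. The called rises and falls also differ in level. Of 474 autosomal rises, 328 had a mean below 50 normalized reads, against 30 of 232 autosomal falls. A limma voom fit to the recovered reads (15189 genes, all 3 genotypes in the fit) called 816 genes higher (5.37%) and 231 lower (1.52%) at an adjusted p under 0.05. It shared 516 rises and 185 falls with the authors' table. Scaled by total reads in place of the authors' factors, the same fit called 1356 higher and 163 lower, with the median log2 fold change of shared genes moved up by 0.20. Without wild-type library a the fit called 142 and 59, and without wild-type library b 256 and 89. Without glh-1 library a it called 607 higher and 19 lower.

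A larger share of genes rose on the X chromosome than on any autosome. Of 1093 X-linked genes tested, 171 rose (15.6%) and 6 fell (0.549%). On the autosomes, 474 of 8447 genes rose (5.61%) and 232 fell (2.75%). Among single autosomes the share that rose ran from 4.84% on chromosome I to 6.7% on chromosome IV. The median log2 fold change was 0.68 for X-linked genes and -0.02 for autosomal genes, beside 0.04 for all genes tested. These figures come from the authors' deposited table, with chromosomes from the WBcel235 annotation, release 115.

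**Figure D1:**
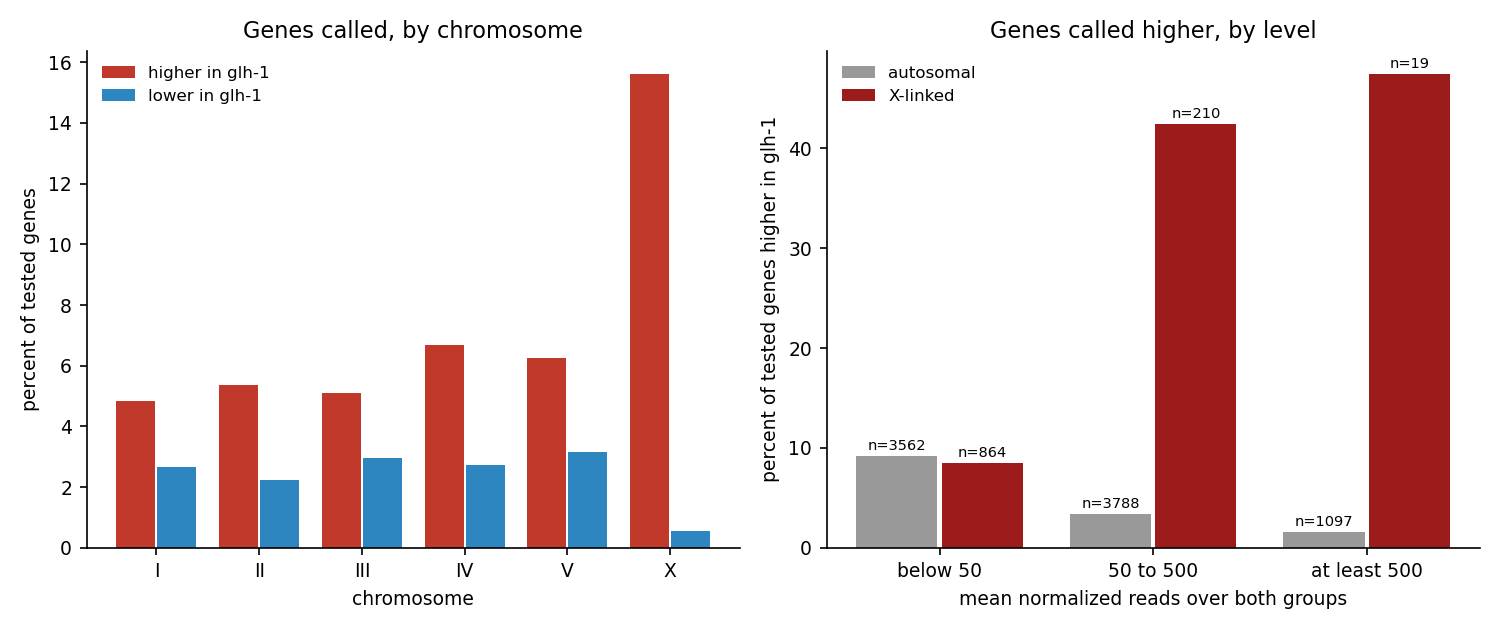
Left, percent of the genes tested on each chromosome that were higher (red) or lower (blue) in glh-1 than in wild-type gonads in the authors' deposited table; the X bar for higher stands at 15.6% and no autosome is above 6.7%. Right, percent of X-linked (dark red) and autosomal (grey) genes called higher, by mean normalized reads over both groups, with the number tested above each bar; X and autosomal bars are alike below 50 reads and far apart above.

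The difference between X and autosomes lay in genes with appreciable read numbers. At a mean of 50 to 500 normalized reads over both groups, 89 of 210 X-linked genes rose (42.4%) and 0 fell, while 129 of 3788 autosomal genes rose (3.41%) and 109 fell. At 500 reads or more, 9 of 19 X-linked genes rose and 1 fell, against 17 rises and 93 falls among 1097 autosomal genes. Below 50 reads the shares were alike, with 73 of 864 X-linked genes (8.45%) and 328 of 3562 autosomal genes (9.21%) higher. The medians at 50 to 500 reads were a log2 fold change of 0.92 on X and -0.14 on the autosomes. The mean that sets these ranges includes the mutant libraries, so a gene that rose can have moved into a higher range.

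An X-linked rise was also present among the genes left after some somatic sets were removed. The sets removed were the authors' soma-specific category and the lists of intestine, yolk proteins, muscle, neurons, hypodermis and seam, and cuticle collagens. The somatic gonad and sheath list and the basement membrane list were not among them. Of the genes left, 128 of 897 X-linked genes rose (14.3%, median log2 fold change 0.60) and 337 of 7745 autosomal genes (4.35%, median -0.05). Within the category that the authors label ubiquitous, 52 of 202 X-linked genes rose (25.7%) and 0 fell, against 63 rises (3.86%) and 73 falls among 1631 autosomal genes. Within their soma-specific category the shares were closer, with 34 of 167 on X (20.4%) and 102 of 574 on the autosomes (17.8%). Within their germline-enriched category, 1 of 51 X-linked genes tested rose (1.96%, median log2 fold change -0.09). On the autosomes 11 of 1981 such genes rose (0.555%, median -0.19). The sources used here do not give how the authors chose these categories. By its name the ubiquitous category is not limited to the germ line, and the part of other tissues in these rises was not tested.

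**Figure D2:**
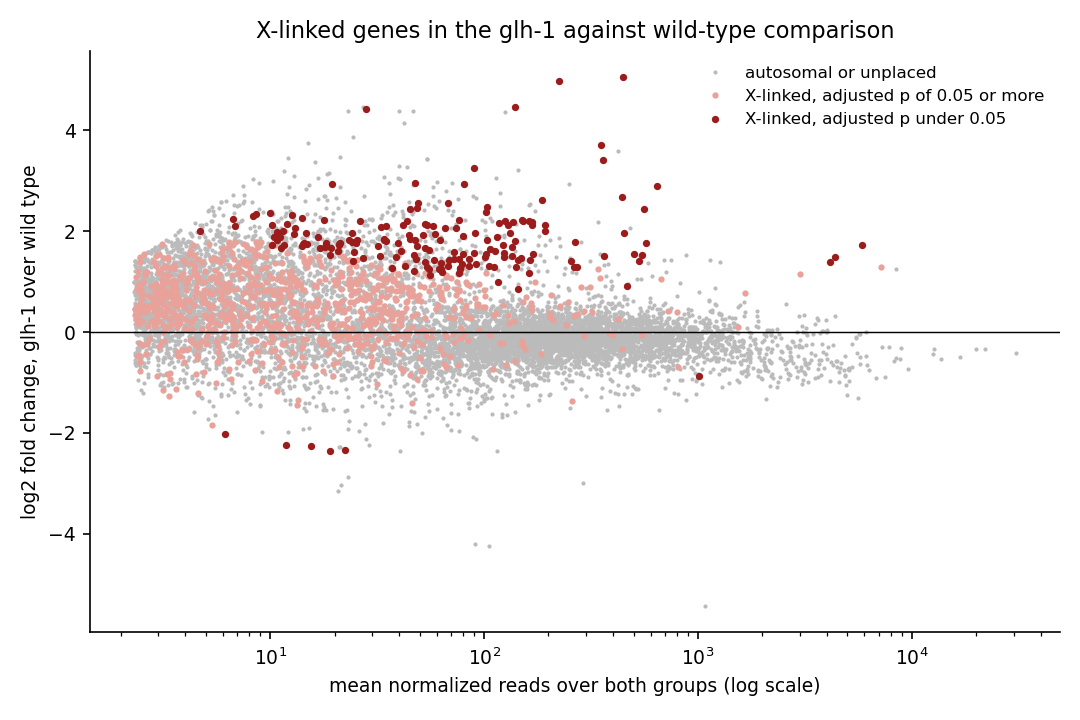
Each point is a gene tested in the authors' deposited table, placed by its mean normalized reads over both groups (log scale) and its log2 fold change of glh-1 over wild type. X-linked genes (red; darker where the adjusted p is under 0.05) lie mostly above 0 also at 50 to 500 reads, where the median is 0.92, while autosomal or unplaced genes (grey) there centre near 0.

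The share of all reads that fell on the X chromosome told the 2 groups apart in every library. Without the yolk protein genes, X-linked genes took 1.22%, 1.22% and 1.97% of reads in wild-type libraries a, b and c. They took 2.92% and 3.37% in glh-1 libraries a and b. Both mutant libraries lie above all wild-type libraries, and wild-type library c, the shallowest, is nearest to them. With the somatic sets named above left out as well, the shares were 1.05%, 1.01% and 1.67% against 2.39% and 2.58%. The voom fit called 182 X-linked genes higher, 139 without glh-1 library b and 165 without glh-1 library a. It called 50 without wild-type library a and 80 without wild-type library b.

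**Figure D3:**
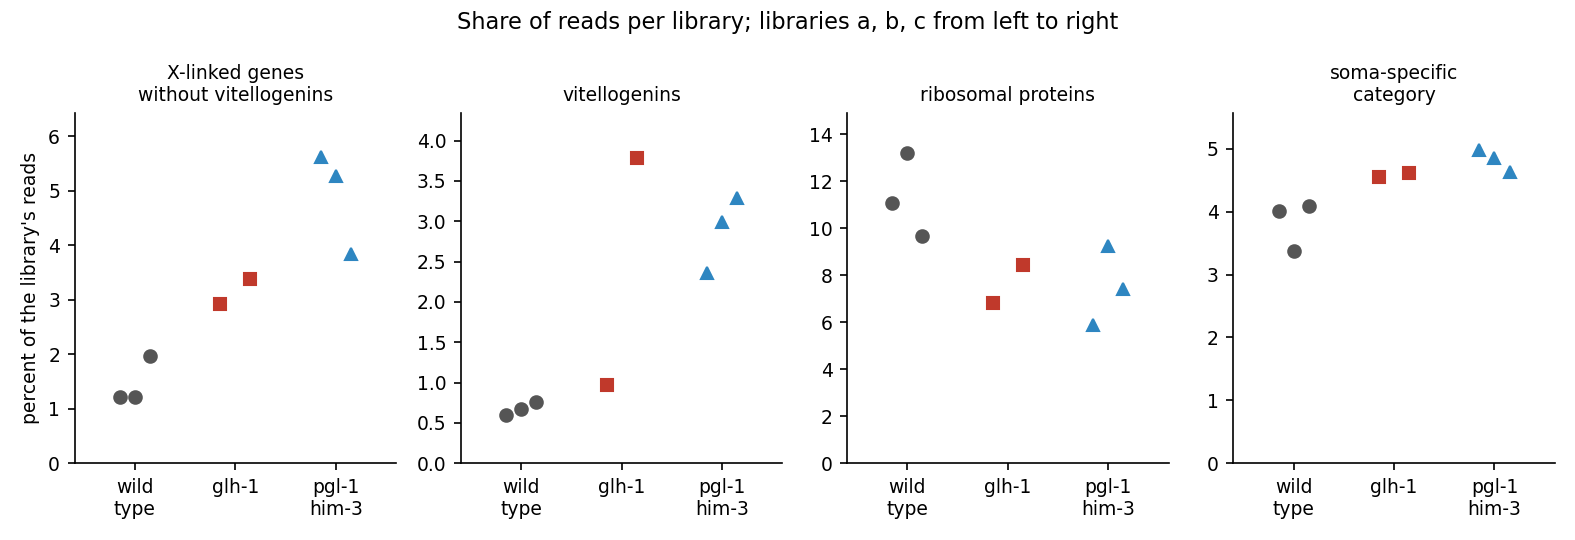
Percent of each library's reads on 4 gene sets in wild-type (circles), glh-1 (squares) and pgl-1 him-3 (triangles) gonads, one point per library. X-linked genes without yolk protein genes run from 1.22% to 1.97% in wild type and stand at 2.92% and 3.37% in glh-1; yolk protein genes are at 3.79% in glh-1 library b alone and at 0.98% in library a.

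Several X-linked rises were among the largest of the whole table. The largest deposited rise by the rule for named genes was that of glit-1, the worm relative of the adhesion protein gliotactin. Its normalized reads were 14.4, 14.6 and 51.5 in wild type and 1114 and 1210 in glh-1, and no library comes near the other group. The log2 fold change of glit-1 was 5.06 in the authors' deposited table (adjusted p = 8.34e-36) and 5.89 ± 0.40 (SE) by limma voom (adjusted p = 1.52e-06). The Pumilio-family gene puf-9 stood at 42.7, 40.9 and 91.8 in wild type against 826 and 899 in the mutant. Its log2 fold change was 3.71 in the authors' deposited table (adjusted p = 2.35e-27). The short-chain dehydrogenase gene dhs-26 had no read in any wild-type library and stood at 28.97 and 122 in glh-1, at least 77.1-fold higher when set against 3 reads over the wild-type group. The X-linked T22B7.7 rose from 6.90, 5.84 and 15.7 to 158 and 570, with a log2 fold change of 4.47 in the authors' deposited table (adjusted p = 2.37e-17).

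Among abundant X-linked genes, 4 were picked after their values were seen. The elongation factor gene eef-1A.2 stood at 156, 175 and 228 in wild type and at 1370 and 1568 in glh-1, with a log2 fold change of 2.90 in the authors' deposited table (adjusted p = 1.13e-31). The rabconnectin gene rbc-1 stood at 147, 173 and 282 against 1588 and 846. The gene spat-3, which encodes a RING protein related to the histone H2A ubiquitin ligase RING1B, stood at 274, 269 and 394 against 1115 and 1059. The octopamine synthesis gene tbh-1 stood at 250, 254 and 401 against 943 and 877. None of these 4 genes overlapped between the groups. The exception on X above 500 reads was Y73B3A.18, which fell from 1464, 1326 and 1254 to 602 and 850 (log2 fold change -0.87 in the authors' deposited table, adjusted p = 0.00387).

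The 2 ribosomal protein genes that rose of 78 tested, rpl-25.1 and rpl-11.2, were the 2 X-linked members tested, while 25 of the others fell. Normalized reads of rpl-25.1 were 5.02, 13.6 and 11.2 in wild type and 255 and 924 in glh-1, and those of its autosomal relative rpl-25.2 went from 2286, 2875 and 2313 to 1144 and 1750. Those of rpl-11.2 were 40.2, 108 and 38.1 against 634 and 1132. Its autosomal relative rpl-11.1 was at 6270, 10265 and 3869 against 4048 and 4039, groups that overlap. In the authors' deposited table rpl-25.1 and rpl-11.2 had log2 fold changes of 4.98 and 3.42 (adjusted p = 1.98e-22 and 1.13e-14), rpl-25.2 fell (-0.75, adjusted p = 0.0295; 0.0535 by limma voom) and rpl-11.1 did not pass (-0.69, adjusted p = 0.182). The elongation factor gene eef-1A.1 on chromosome III, the relative of eef-1A.2, had a log2 fold change of -0.42 that did not pass (adjusted p = 0.153 in the authors' deposited table). Reads of such close copies can be shared in counting. The autosomal relatives named in this paragraph and the next were chosen after their values were seen.

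Of 31 genes of oxidative phosphorylation tested, the mitochondrial process that makes ATP, 5 rose (beside 6.68% of all genes), and all 5 were among its 6 X-linked members. They were ucr-2.1 and ucr-2.2 (core subunits of complex III), gas-1 (a subunit of complex I), asb-2 (a subunit of ATP synthase) and sdha-1 (the flavoprotein of complex II). Normalized reads of asb-2 were 62.1, 59.4 and 82.8 in wild type and 275 and 397 in glh-1. Its autosomal relative asb-1 stood at 977, 953 and 878 against 704 and 681, a change that did not pass (log2 fold change -0.42, adjusted p = 0.146 in the authors' deposited table). The autosomal relative of sdha-1, sdha-2, did not pass either, at 874, 885 and 625 against 607 and 633, where the groups overlap (log2 fold change -0.35, adjusted p = 0.384 in that table). For gas-1 they were 48.3, 67.2 and 73.9 against 344 and 284, a log2 fold change of 2.23 in the authors' deposited table (adjusted p = 1.4e-11). The 1 member that fell, atp-2 (the beta subunit of ATP synthase), changed by -0.58 on the log2 scale in that table. The median of the list was -0.20, below the 0.04 of all genes tested. The voom fit called 5 rises as well, but 2 without wild-type library a and 3 without glh-1 library a.

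Chromatin regulators rose in 2 of 49 tested cases (4.08%), a smaller share than the 6.68% of all genes. Both were among the 6 X-linked members, beside 15.6% of all X-linked genes that rose: utx-1, which encodes a demethylase of lysine 27 on histone H3, and lin-15B, a repressor of germline genes in somatic cells. Normalized reads of lin-15B were 168, 129 and 244 in wild type and 388 and 537 in glh-1 (log2 fold change 1.296, adjusted p = 0.00109 in the authors' deposited table). Those of utx-1 were 35.8, 37.02 and 103 against 246 and 126, with only a small gap between the groups. Of 17 dosage compensation genes tested 1 rose (5.88%, beside 6.68% of all genes), and it was among the 3 X-linked members. This gene, sdc-1, stood at 55.9, 75.0 and 96.3 against 249 and 193.

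Genes of germ granules fell or did not pass, and none rose. Of 43 tested, 8 were lower (18.6%, beside 2.47% of all genes), with a median log2 fold change of -0.24 in the authors' deposited table. The gene deps-1, whose protein is needed for P granules to form normally, stood at 1216, 1197 and 1010 in wild type and at 322 and 615 in glh-1. Its groups are well apart, and it fell by 1.22 on the log2 scale in the authors' deposited table (adjusted p = 8.01e-04). The Y-box protein gene cey-2 fell from 6788, 8211 and 6325 to 2973 and 2837 (log2 fold change -1.26, adjusted p = 1.57e-08 in the authors' deposited table). The others were cey-3, ife-3 (a cap-binding protein), car-1 and cgh-1 (proteins of messenger RNA particles), laf-1 (a DEAD-box helicase) and pgl-2, with deposited log2 fold changes of -1.04 to -0.57. In the voom fit 7 fell and 0 rose. With total-read scaling 6 fell and 1 rose and the median was -0.02, and without glh-1 library a 2 fell.

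Relatives of glh-1 were little changed in this mutant. Normalized reads of glh-2 were 614, 1021 and 468 in wild type and 604 and 651 in glh-1. Those of glh-4 were 808, 1051 and 616 against 617 and 726, and those of glh-3 were 324, 362 and 307 against 362 and 288. The groups overlap for all 3 genes, and their deposited log2 fold changes of -0.28 to -0.02 did not pass (adjusted p of 0.563 or more in the authors' deposited table). Levels of pgl-1 overlapped as well, at 1803, 2339 and 1113 against 1486 and 1385. The minor family member pgl-2 fell from 191, 202 and 175 to 114 and 94.6 (log2 fold change -0.81, adjusted p = 0.0358 in the authors' deposited table). Levels of pgl-3 were 1159, 1668 and 965 against 878 and 717, without overlap, and its deposited change of -0.63 did not pass (adjusted p = 0.119).

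Within the small RNA pathways, 4 genes changed. Of 17 Argonaute and RNA-directed RNA polymerase genes, 2 rose (11.8%), the polymerase gene rrf-2 and the Argonaute gene C04F12.1. The Piwi-class gene prg-2 fell (5.88%). Of all genes tested, 6.68% were higher and 2.47% lower. In the voom fit 2 rose and 1 fell as well, but 0 rose without wild-type library a or b. Normalized reads of prg-2 were 1581, 1356 and 1057 in wild type and 666 and 708 in glh-1 (log2 fold change -0.92, adjusted p = 0.00239 in the authors' deposited table). Of 21 genes of small RNA biogenesis, eri-6 alone changed, a rise in 4.76% of the list. It encodes part of a helicase of the endogenous siRNA pathway. Its reads rose from 8.16, 6.82 and 4.48 to 68.8 and 60.04 (log2 fold change 2.70, adjusted p = 2.58e-06 in the authors' deposited table). Both groups are tight and far apart, with a ratio of averages of 9.94.

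Core germline programmes moved little in size, with medians slightly below that of all genes. Of 53 genes of meiotic prophase, 2 fell (3.77%, beside 2.47% of all genes), msh-5 and cra-1, and none rose. By limma voom 1 fell, and msh-5 did not pass (adjusted p = 0.0519). Of 63 genes of oogenesis and maternal supply, 4 fell (6.35%): cey-2, cey-3, cgh-1 and the translational repressor gene gld-1. Normalized reads of gld-1 were 4089, 3916 and 4144 in wild type and 2488 and 2693 in glh-1. Of 43 genes of germline stem cells and proliferation, gld-1 and the ribonucleotide reductase gene rnr-1 fell (4.65%). The medians of these 3 lists were -0.22, -0.23 and -0.24 on the log2 scale. By limma voom with total-read scaling they were -0.01, -0.02 and -0.04, with 0, 3 and 0 falls and 1 rise in each list. Of 16 eggshell genes, which had a median of -0.30, 1 fell and 1 rose (6.25% each, beside 2.47% and 6.68% of all genes). The fall was that of gld-1. The fatty acid synthase gene fasn-1 rose from 541, 538 and 506 to 1300 and 1869 (log2 fold change 1.54, adjusted p = 4.51e-09 in the authors' deposited table). The voom fit called 3 eggshell genes lower and 1 higher, and 0 lower without glh-1 library a or wild-type library a. By the authors' own categories, which are not independent of their data, 92 of 2057 germline-enriched genes fell and 13 rose, and 17 of 169 germline-specific genes fell and 0 rose.

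**Figure D4:**
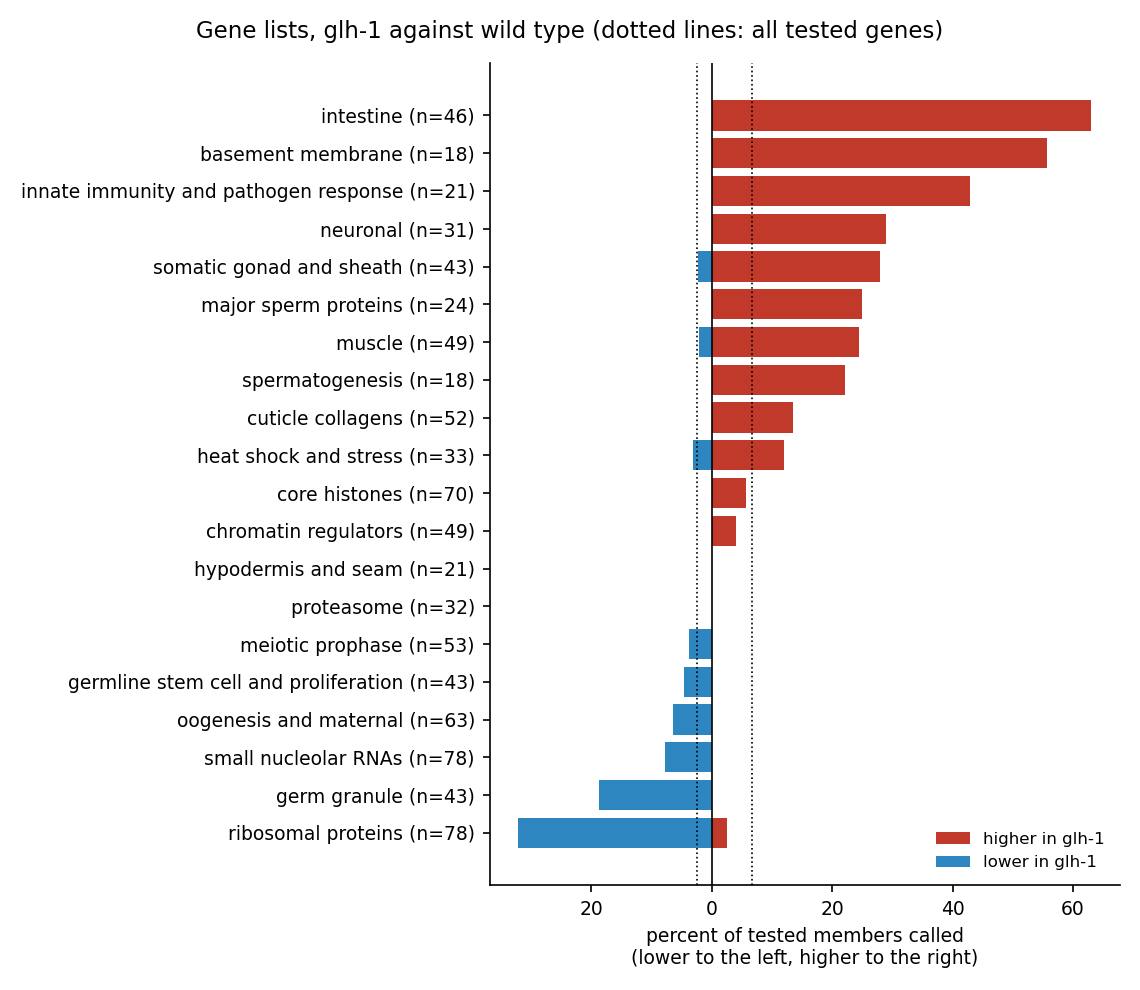
Percent of the tested members of each gene list that were higher (red, to the right) or lower (blue, to the left) in glh-1 than in wild-type gonads in the authors' deposited table, with the number tested in brackets; dotted lines mark 6.68% higher and 2.47% lower for all genes. Lists of intestine and basement membrane reach furthest to the right and ribosomal proteins furthest to the left.

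Among the gene lists, ribosomal proteins held the most falls, 25 of 78 tested against 2.47% of all genes tested. Their median log2 fold change was -0.71 in the authors' deposited table, and they took 11.05%, 13.2% and 9.67% of reads in wild type against 6.81% and 8.45% in glh-1. Normalized reads of rps-1 were 5846, 8905 and 5731 in wild type and 2554 and 3812 in the mutant. Those of rps-2 were 6530, 13994 and 3998 against 2800 and 3168, with wild-type library b far above the others. The count of falls rests on the settings and the libraries used. The voom fit called 34 of 79, but 2 of 78 at a group mean of at least 10 and 55 of 79 with no filter on low values. It called 5 without wild-type library a and 10 without wild-type library b, and the limma-trend fit called 2. The median log2 fold change ran from -0.98 (without glh-1 library b) to -0.54 (without glh-1 library a) over the voom fits that leave out a library. The proteasome list, 32 genes that also serve all cells, had no call in either direction in the authors' deposited table, with a median of -0.37. By limma voom 1 of the 32 fell, and 18 had an unadjusted p under 0.05.

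Small nucleolar RNAs, which guide the modification of ribosomal RNA, had a median log2 fold change of -1.06, and 6 of 78 tested fell (7.69%, beside 2.47% of all genes) while 0 rose in the authors' deposited table. Wild-type library b stood apart in this class. Small nucleolar RNAs took 1.18% of its reads, against 0.492% and 0.25% in wild-type libraries a and c and 0.244% and 0.307% in glh-1. The falls of R166.7 (63.4, 328 and 62.7 against 19.9 and 25.5) and B0412.7 (40.8, 171 and 40.3 against 11.5 and 16.38) show the same excess in library b, and neither passed in the voom fit (adjusted p = 0.0757 and 0.0853). That fit called 1 of the class lower (median -1.40). It called 0 without wild-type library b (median -0.83), 0 without glh-1 library a, 3 without wild-type library a and 17 without wild-type library c (median -1.76).

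**Figure D5:**
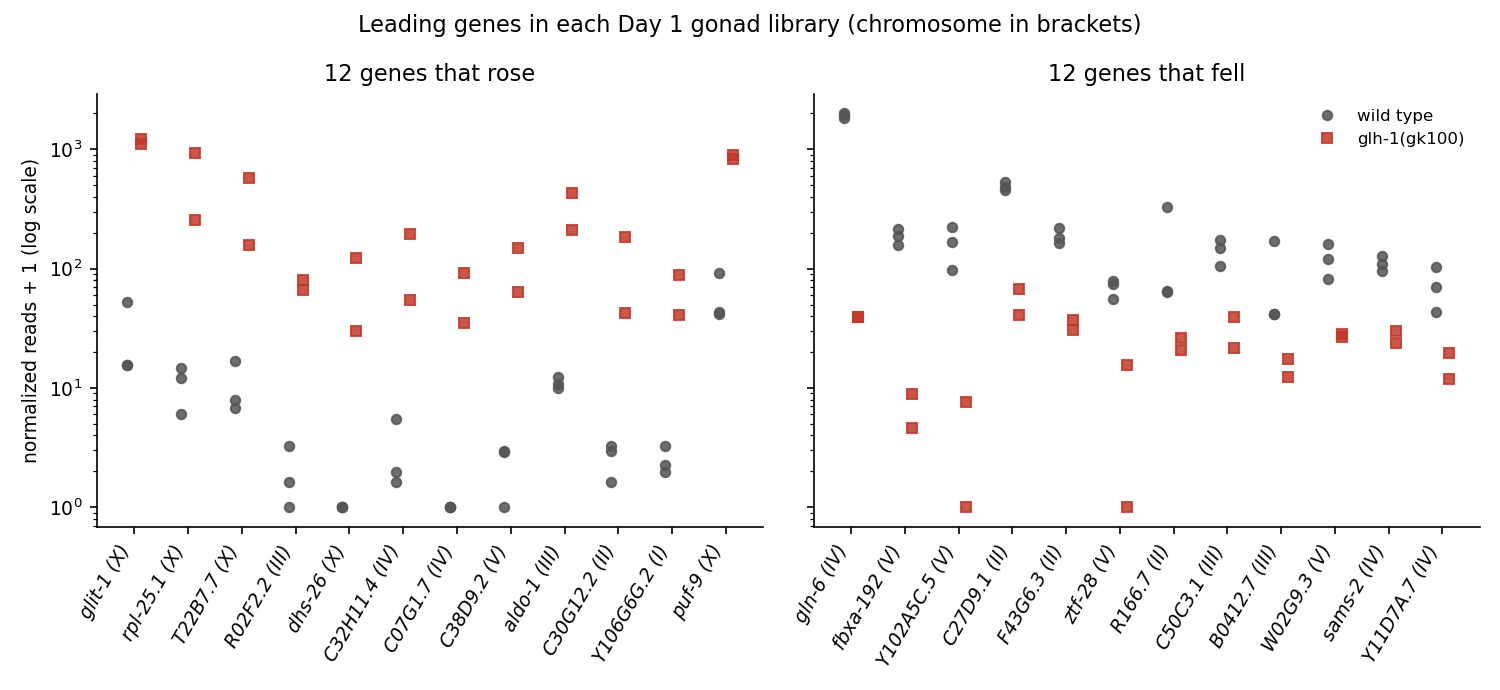
Normalized reads plus 1 (log scale) in each wild-type (grey circles) and glh-1 (red squares) library for the 12 genes with the largest rises and the 12 with the largest falls by the rule for named genes, with the chromosome of each in brackets. The rule admits only genes whose libraries do not overlap between the groups, as was so for 44.7% of all genes tested. The gene gln-6 falls from between 1826 and 2004 to 38.6 and 38.2.

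The deposited fold change of gln-6 was larger in size than that of any rise named by the rule. It is a member of the glutamine synthetase family on chromosome IV. It stood at 1826, 2004 and 1932 normalized reads in wild type and at 38.6 and 38.2 in glh-1. The ratio of the averages was 49.99, and the log2 fold change was -5.44 in the authors' deposited table (adjusted p = 1.3e-111). In the pgl-1 him-3 strain gln-6 stood at 1486, 1261 and 1359, below all wild-type libraries, and by the authors' deposited table it was lower there too (-0.49 on the log2 scale, adjusted p = 0.00806). Set against that strain, gln-6 in glh-1 gonads differed by -5.14 on the log2 scale by limma voom (adjusted p = 7.71e-07). After P-granule RNAi it changed by -0.88 on the log2 scale against control in the authors' deposited table.

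Other strong falls were of genes on several autosomes. The F-box gene fbxa-192 went from 188, 214 and 157 to 7.85 and 3.64 normalized reads. The pseudogene Y102A5C.5, also on chromosome V, went from 166, 222 and 96.3 to 6.64 and 0. The gene C27D9.1 had a ratio of wild-type to glh-1 averages of 9.20, F43G6.3 went from 217, 179 and 163 to 29.6 and 36.4, and sams-2, named for S-adenosylmethionine synthetase, went from 108, 127 and 94.0 to 22.9 and 29.1. The authors' deposited table types F43G6.3 and sams-2 as pseudogenes too. The remaining genes of the 12 falls were the zinc finger gene ztf-28, C50C3.1, W02G9.3 and Y11D7A.7 and the small nucleolar RNAs named above. Of 197 genes tested that are typed as pseudogenes, 13 fell (6.6%, beside 2.47% of all genes) and 4 rose (2.03%, beside 6.68%). The pseudogenes were counted after the falls named here were seen.

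Of the 12 largest rises, 7 were autosomal. The glycolytic gene aldo-1 (aldolase) on chromosome III stood at 11.3, 9.74 and 8.96 in wild type and at 211 and 433 in glh-1 (log2 fold change 4.37, adjusted p = 3.22e-22 in the authors' deposited table). R02F2.2 stood at 0.628, 0 and 2.24 against 79.1 and 65.5. C07G1.7 had no read in wild type and stood at 33.8 and 91.0 in glh-1, at least 63.8-fold higher when set against 3 reads over the wild-type group. The others were C32H11.4, C38D9.2, C30G12.2 and Y106G6G.2, at no more than 4.48 normalized reads in any wild-type library and at 40.0 or more in both glh-1 libraries.

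Lists of somatic tissues rose in part. Of 46 intestine genes, 29 rose (63%, beside 6.68% of all genes) and 0 fell (median log2 fold change 1.54), among them the fatty-acid-binding gene far-3, the cathepsin B-like gene cpr-4, the lectin gene clec-63 and the lysozyme genes lys-8 and lys-2. Normalized reads of clec-63 were 53.97, 68.2 and 24.6 in wild type against 216 and 510 in glh-1, and those of cpr-4 were 8.16, 25.3 and 6.72 against 82.7 and 189. In both genes glh-1 library b was the higher of the 2. Of 21 immunity genes 9 rose (42.9%), clec-63 and lysozyme genes of the intestine list among them. In the voom fit 9 rose as well, and 3 without wild-type library a. The thaumatin-like gene thn-2 was first, at 1.88, 8.77 and 6.72 against 63.98 and 135. The yolk protein genes vit-3, vit-4 and vit-5 rose, with vit-5 at 2641, 3312 and 3081 in wild type, 4779 in glh-1 library a and 17804 in library b. By limma voom vit-3 and vit-4 did not pass (adjusted p = 0.106 and 0.0727), and 1 of the 6 yolk protein genes rose, 0 without wild-type library a, b or c and 6 without glh-1 library a. The median log2 fold change of the 6 in that fit was 1.08, and 0.28 without glh-1 library b. Intestine genes without the yolk proteins took 0.0616% to 0.0769% of reads in wild type and 0.195% and 0.367% in glh-1. In the voom fit 21 intestine genes rose, 35 without glh-1 library a and 12 without library b, 2 without wild-type library a and 7 without wild-type library b.

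Genes of the basement membrane, the sheet of extracellular matrix that wraps the gonad, had a median log2 fold change of 1.24. Of 18 tested, 0 fell and 10 rose (55.6%, beside 6.68% of all genes). They included let-2 and emb-9 (type IV collagen), nid-1 (nidogen), ost-1 (the SPARC protein), lam-3 and lam-2 (laminin chains), cle-1, unc-52 (perlecan), dgn-1 (dystroglycan) and the matrix protease gene gon-1. Normalized reads of ost-1 were 30.8, 51.6 and 40.3 in wild type and 223 and 297 in glh-1 (log2 fold change 2.49, adjusted p = 2.47e-11 in the authors' deposited table). Those of let-2 were 138, 346 and 132 against 742 and 1088. The groups are apart for both genes, in both glh-1 libraries. The somatic gonad and sheath list, which shares members with the basement membrane list, had 12 of 43 higher (27.9%). The voom fit called 10 of it higher, but 1 without wild-type library a and 6 without wild-type library b. The inositol trisphosphate receptor gene itr-1 in this list stood at 25.1, 27.3 and 22.4 against 83.9 and 147. The 1 member lower was pgl-2. In the voom fit 8 basement membrane genes rose, 8 without glh-1 library b, 6 without glh-1 library a, 4 without wild-type library b and 1 without wild-type library a.

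Of 49 muscle genes 12 rose (24.5%, beside 6.68% of all genes) and 1, the actin gene act-2, fell, and among the rises the vinculin gene deb-1 stood at 15.1, 12.7 and 13.4 in wild type and at 85.1 and 96.4 in glh-1 (log2 fold change 2.40, adjusted p = 7.67e-07 in the authors' deposited table). The muscle myosin gene unc-54 was at 132, 344 and 202 against 302 and 979, so it overlaps in library a. The voom fit called 8 muscle genes higher, 18 without glh-1 library a, 4 without glh-1 library b, and 1, 2 and 4 without wild-type library a, b and c. Of 31 neuronal genes 9 rose (29%), and 9 of 60 in the voom fit, but 3 without wild-type library a, 4 without wild-type library b and 5 without glh-1 library a. The largest were che-3, a dynein heavy chain of cilia, at 1.26, 0 and 2.24 against 41.04 and 25.5, and unc-31, a factor for dense-core vesicle release, at 1.26, 1.95 and 0 against 44.7 and 18.2. The neuropeptide, hypodermis and seam, and developmental transcription factor lists had no call among 9, 21 and 11 genes tested in the authors' deposited table. By limma voom, which tested more of their low members, 1 of 33, 0 of 39 and 0 of 31 rose, and 4, 7 and 8 had an unadjusted p under 0.05. Among their members skn-1, the maternal factor for endomesoderm, was at 636, 518 and 864 against 709 and 928, and the hypodermal factor gene lin-26 was at 229, 202 and 416 against 283 and 291. Of 52 cuticle collagen genes 7 rose (13.5%), with col-129 at 8.79, 27.3 and 13.4 against 33.2 and 282, most of it in library b, and col-129 did not pass by limma voom (adjusted p = 0.127). The voom fit called 4 collagen genes higher, 31 without glh-1 library a, 3 without glh-1 library b or wild-type library b, 1 without wild-type library c and 0 without wild-type library a.

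Major sperm protein genes, which are near-identical copies that share reads, rose in 6 of 24 tested cases (25%, beside 6.68% of all genes; median log2 fold change 1.60). The wild-type libraries held 0.000163%, 0.000214% and 8.63e-05% of reads on the family, against 0.0123% and 0.00713% in glh-1. The wider sperm lists were read in wild type too. The authors' sperm category took 0.181%, 0.164% and 0.187% of reads there against 0.323% and 0.2004%, and the spermatogenesis list 0.032%, 0.0241% and 0.0378% against 0.0474% and 0.0311%, where the groups overlap. Of 18 spermatogenesis genes 4 rose (22.2%), among them ssq-2 (0 in each wild-type library, 27.8 and 12.7 in glh-1), ssq-4, ssp-10 and the myosin gene spe-15 (34.5, 50.7 and 31.3 against 202 and 67.3). Both mutant libraries are above all wild-type ones for these genes. By the authors' category 26 of 193 sperm genes rose (13.5%) and 1 fell. The voom fit called 17 of 33 major sperm protein genes higher, but 10 without wild-type library c, 3 without glh-1 library a, 1 without wild-type library a and 0 without wild-type library b. For spermatogenesis it called 11 of 46, and 7, 2, 1 and 2 without those libraries.

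Other lists held few calls, and their shares stand beside 6.68% higher and 2.47% lower among all genes tested. Of 70 core histone genes, which are also near copies, 4 rose (5.71%; 2 in the voom fit), with his-32 at 24.5, 30.2 and 31.3 in wild type and 180 and 229 in glh-1 (log2 fold change 2.66, adjusted p = 1.1e-12 in the authors' deposited table). Among 33 heat shock and stress genes the glutathione transferase genes gst-10 and gst-4, the stress kinase gene pek-1 (X-linked) and the mitochondrial chaperone gene hsp-6 rose and the endoplasmic reticulum chaperone gene hsp-4 fell. Normalized reads of hsp-4 were 1752, 1841 and 1504 in wild type and 1051 and 917 in glh-1. Of 42 genes of apoptosis and DNA damage, the DNase gene nuc-1 (X-linked) rose and psr-1 fell (2.38% each). Of 37 splicing genes hrp-1 fell (2.7%). Of 25 germline sex determination genes sdc-1 rose (4%) and gld-1 and laf-1 fell (8%).

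The comparison of the pgl-1 him-3 strain with wild type uses the same wild-type libraries, so its values are only set beside those of glh-1. It has 2997 of 13469 genes higher (22.3%) and 1190 lower (8.84%) in the authors' deposited table. On the X chromosome 737 genes of 1631 were higher and 11 lower there, with a median log2 fold change of 1.53. The share of reads on X-linked genes without yolk proteins was 5.62%, 5.28% and 3.83%, above both glh-1 libraries in every case. For glit-1 the pgl-1 him-3 libraries stood at 1709, 1729 and 2217, for puf-9 at 1205, 1054 and 1170, and for eef-1A.2 at 2824, 3665 and 1895.

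A direct test of both mutants in the limma voom fit found few genes apart, 16 higher in glh-1 (0.105%) and 31 lower (0.204%) of 15189. A p that misses the threshold does not show that the mutants are alike, and the strains also differ in him-3. The gene lin-15B was lower in glh-1 than in the pgl-1 him-3 strain, where it stood at 844, 964 and 854, with a difference of -1.02 on the log2 scale by limma voom (adjusted p = 0.0431). The dystroglycan gene dgn-1 was at 103 and 151 in glh-1 against 404, 428 and 233 there (log2 difference -1.62, limma voom adjusted p = 0.0306). The gene deps-1 was higher in glh-1, since it was at 131, 111.5 and 90.5 in the other mutant (log2 difference 1.83, limma voom adjusted p = 0.0104). The synMuv B genes lin-13 and lin-36 and the Argonaute gene ppw-2 were higher in glh-1 than in that strain, with log2 differences of 1.03, 1.37 and 1.07 by limma voom (adjusted p = 0.0309, 0.0211 and 0.016). In the authors' deposited table no change of these genes passed for glh-1 against wild type (adjusted p of 0.426 or more). The genes dgn-1, lin-13, lin-36 and ppw-2 are list members that were named after this test was seen. Without pgl-1 library c the same test called 40 and 152, and without glh-1 library a 13 and 1.

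The Day 1 P-granule RNAi comparison shares no library with that of glh-1, although the authors normalized the RNAi libraries apart from the others. It has 2505 of 12910 genes higher (19.4%) and 1340 lower (10.4%) in the authors' deposited table. Of the 649 rises in glh-1, 644 were also tested after RNAi and 532 of them rose there (82.6%), which is 32.1% of the 1657 RNAi rises tested in both. Among all 9618 genes tested in both, 17.2% rose after RNAi. Of the 240 falls in glh-1, 166 fell after RNAi (69.2%), while 13.9% of all genes tested in both fell there. These 166 are 12.4% of the 1340 RNAi falls. Opposite calls were 1 for the rises and 0 for the falls. On the X chromosome 396 of 1464 genes rose after RNAi and 15 fell. The gene eri-6 rose in glh-1 and in the pgl-1 him-3 strain and had a log2 fold change of -0.97 after RNAi in the authors' deposited table (adjusted p = 0.0143), and it was the 1 opposite call among the rises.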

How the data were processed

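RNA sequencing of dissected gonads was analysed from the authors' deposited table of 45627 genes. Ribosomal RNA was depleted and the library kit does not mark strand, per the labels' protocols, so reads of overlapping genes cannot be told apart. TopHat2 and DESeq2 are named in the submitters' processing notes; versions, build and counter are not given there. The table holds, per the file headers, group averages of read counts normalized by the authors (signal values), log2 fold changes and BH-adjusted p-values computed by the authors, and 0 or 1 marks of gene categories.

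Because the averages come from whole reads over fixed factors, the reads of each library were worked out: 45439 to 45446 of 45446 genes with values had 1 solution in each genotype, the rest at most 7. In glh-1 and pgl-1, 6721 and 7558 genes held out of the fit of the factors gave back the authors' mean expression within a relative 1e-06 (100% of them). Depth ran from 1158248 to 4303736 reads in the libraries compared, so a gene with no read may still be present at a low level; bounds against 3 reads cover counting error only.

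The design kept the authors' deposited calls as main and added limma 3.58.1 voom fits in R 4.3.3 (BH threshold 0.05, group mean of at least 1 normalized read), tested on simulated data. Libraries that are left out leave 1 glh-1 library in some fits, which is then assumed to vary like the other groups. Chromosomes came from the WBcel235 annotation, release 115, and were matched for 9540 of 9718 tested genes. Its build may differ from that of the files, so no positions are given. Genes were named by a rule: the GLH and PGL families and deps-1, the 12 largest rises and 12 largest falls with an average of at least 50 normalized reads in the higher group and no overlap of libraries, and up to 5 called genes for each of 33 gene lists (up to 3 with the highest level where a list had none). Genes picked otherwise are said to be so. The members and lists were chosen with earlier results of these data known. Alternatives were other scalings, filters, pseudocounts, weights and left-out libraries.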

Additional observations from a re-analysis of the deposited data

Results flagged for a closer look

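For 17 genes that were named, 12 of them picked for this difference after it was seen, the difference of glh-1 from the pgl-1 him-3 strain passed in the limma voom fit (adjusted p under 0.05), so the change from wild type differs between both mutants. The strains differ in him-3 and may differ in other background sites, which cannot be told apart from the named alleles. Log2 values are glh-1 minus pgl-1 him-3. Both targeted genes were among them, glh-1 at 1.56 and pgl-1 at 3.20, as was deps-1 at 1.83. Below 0 were gln-6 at -5.14, lin-15B at -1.02 and dgn-1 at -1.62, and above it were lin-13 at 1.03, lin-36 at 1.37, ppw-2 at 1.07 and the checkpoint kinase gene atl-1 at 0.87. Of these, dgn-1, lin-13, lin-36, ppw-2 and atl-1 are list members that were picked after this test was seen. The deposited change of atl-1 from wild type did not pass (log2 fold change 0.23, adjusted p = 0.584 in the authors' deposited table).

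The other 7 were also named after their values were seen, as the largest differences with an average of at least 50 normalized reads in a group. The neighbours by name C01B10.8 and C01B10.9 on chromosome IV differed by 7.47 and 8.17. They stood at 255 and 282 and at 210 and 184 normalized reads in glh-1, close to their wild-type levels, and at most at 1.41 and 1.77 in any pgl-1 him-3 library. ZC410.3, also on chromosome IV, differed by 3.89. On the other side, F21D9.7 differed by -4.22, Y46B2A.2 by -3.43, ZK250.9 by -3.34 and F59H6.5 by -3.33. These 4 stood at 107 to 229 in each pgl-1 him-3 library and at no more than 33.2 in any glh-1 library, and the annotation used holds no entry under their identifiers. No group has the 4 libraries needed to test single libraries as outliers.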

How the results depend on the processing

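At an adjusted p of 0.01 the authors' deposited table gives 364 rises and 102 falls in place of 649 and 240, and with a log2 fold change of at least 1 in size 110 falls. Scaling by total reads gave 1356 rises (816 with the authors' scaling) and 293 X-linked rises (182). Between the mutants, genes higher in glh-1 numbered 80 with no filter on low values, 9 at a group mean of at least 10, and 8 and 7 by limma trend with a pseudocount of 1 and 0.5, in place of 16. Genes lower in glh-1 numbered 66 with total-read scaling, 101 with no filter, and 20 and 12 by limma trend, in place of 31. Leaving out 1 library gave 142 (wild-type a) to 738 (glh-1 b) rises and 19 (glh-1 a) to 247 (wild-type c) falls, 256 and 89 without wild-type b, 59 falls without wild-type a, and 50 (wild-type a) to 165 (glh-1 a) X-linked rises, 80 without wild-type b. Between the mutants it gave 9 (pgl-1 a or b) to 40 (pgl-1 c) genes higher and 1 (glh-1 a) to 152 (pgl-1 c) lower, 17 without pgl-1 b. The cause of these shifts was not tested. Of 151 named genes, none reversed a called change from wild type in the voom and trend fits run, while 52 lost the call without wild-type a, 34 without wild-type b, 36 without glh-1 a and 4 with total-read scaling. No paired analysis was possible because the deposited values carry no replicate numbers.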
